A study of Homo sapiens with 32 samples.

Results

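The genes described here encode the later part of the respiratory chain and the enzyme it drives: complex III, cytochrome c, complex IV and ATP synthase. They were every gene entry whose symbol starts with UQCR or ATP5, or with COX, a number between 4 and 8 and a further letter, or is CYC1 or CYCS, with at least 50 counts summed over the 32 libraries. Of 32738 entries, 36 met this rule: 8 of complex III, CYCS alone, 11 of complex IV and 16 of ATP synthase. Of these, 33 encode nuclear encoded subunits or cytochrome c, while COX7A2L (a supercomplex assembly factor), ATP5S and ATP5SL are related proteins that are not core subunits. The libraries came from HEK293, an established cell line derived from human embryonic kidney, incubated with 4-thiouracil, a thiol-bearing uracil that is used to tag RNA as it is made, for 0, 5, 15 or 30 min. Each time had 2 biological replicates, called cultures here, with 4 libraries per culture made from 2 cDNA preparations. The libraries of a culture were summed, so n = 2 cultures at each time. The labels name polyadenylated RNA of whole cells, and the library titles begin with TTSeq. They do not say if tagged RNA was purified before counting, or how the 0 min cells were treated.

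Complex III passes electrons from ubiquinol to cytochrome c, the small haem protein that carries them to complex IV, and complex IV passes them to oxygen. Both pump protons across the mitochondrial inner membrane, and ATP synthase lets the protons back through its ring of c subunits to turn the head in which ATP is made. Each complex is built from proteins of the nuclear genome together with a few made inside the mitochondrion. The nuclear genes are expressed in nearly all tissues, and factors that bind many of their promoters include NRF1, ETS-family proteins and YY1.

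The data were whole-number counts per gene. Libraries held 188686 to 381471 counts and cultures 776871 to 1396056. Of 10439 genes tested, all 36 members among them, median log2 fold changes against 0 min were 0.10 at 5 min, 0.19 at 15 min and 0.35 at 30 min with TMM scaling between cultures. When cultures were scaled by total count alone, these medians became 0.83, 0.95 and 1.21, and the share of significant genes that were lower became 24.6%, 21.3% and 19.3%, in place of 47.5%, 45.3% and 42.6%. Of 7 matched HEK293 marker genes all had counts over all libraries, but only 4 passed the filter for testing. Counts were 2814 for VIM, 104 for KRT8, 74 for KRT18, 55 for NEFM, 41 for LHX1, 5 for PAX2 and 4 for INA. Of 17 matched markers of other cell types, 15 had no count, DES had 1 and APOA1 had 62. APOA1 was higher at 30 against 0 min (log2 fold change 3.06, adjusted p = 0.0189 by edgeR), a call that DESeq2 did not make, and its part in the results below was not tested.

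Promoter sequences were available for 29 of the 36 members from RefSeq (GRCh38.p14), as windows of 300 bases, 250 before to 50 after each annotated start. Motifs of 3 factors were searched on both strands: the NRF1 site (the 10 letters capitalised below in UQCR10, with any base at the sixth), the ETS-family core CCGGAAG and the YY1 site AAGATGGCG, and no hit of one motif overlapped a hit of another. The NRF1 motif stood in 6 of the 29 (20.7%), against 6.98% of 27305 genes with a window. The ETS core stood in 12 (41.4%), against 12.2% of those genes, and the YY1 motif in 2 (6.90%), against 2.14%. At least 1 of the 3 was present in 17 members (58.6%), against 19% of the 27305 genes. The 27305 genes were not limited to those tested in these cells, and the shares among the genes tested were not computed. A match describes the letters only, and no binding was measured here.

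Both whole windows shown first belong to complex III genes that stood far apart at 30 against 5 min, with log2 fold changes of −0.39 for UQCRC1 and 1.08 for UQCRFS1, a difference that was not tested. UQCRC1 (minus strand, chr3:48609597-48609896) has the NRF1 motif, read from the other strand, with its first base 47 bases before the start, and the YY1 motif 23 bases into the transcript. UQCRFS1 (minus strand, chr19:29213102-29213401) has the NRF1 motif 31 bases before the start. Each line runs 5′ to 3′ on the gene's strand and capitals mark the motifs.
UQCRC1: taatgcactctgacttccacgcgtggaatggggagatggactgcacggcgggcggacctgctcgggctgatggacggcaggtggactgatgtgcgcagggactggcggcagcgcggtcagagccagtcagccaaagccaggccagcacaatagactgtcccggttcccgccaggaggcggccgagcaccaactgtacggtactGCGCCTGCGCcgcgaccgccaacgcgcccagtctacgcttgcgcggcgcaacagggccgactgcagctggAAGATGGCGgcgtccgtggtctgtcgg
UQCRFS1: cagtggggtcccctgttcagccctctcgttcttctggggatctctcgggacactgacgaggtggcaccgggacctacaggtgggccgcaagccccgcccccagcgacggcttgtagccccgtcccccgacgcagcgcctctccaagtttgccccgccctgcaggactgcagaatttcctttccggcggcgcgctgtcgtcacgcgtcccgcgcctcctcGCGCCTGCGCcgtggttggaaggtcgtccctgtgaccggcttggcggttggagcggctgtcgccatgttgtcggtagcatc

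Shorter windows, of 60 bases from 50 before to 10 after the start, give examples of a motif near the start from each complex; other members, such as ATP5L, COX4I1, ATP5I and ATP5J, also hold the ETS core within such a window. They are ATP5C1 (plus strand, chr10:7788127-7788186), ATP5O (minus strand, chr21:33915795-33915854) and UQCR10 (plus strand, chr22:29767319-29767378) with the NRF1 motif, and COX5B (plus strand, chr2:97646012-97646071), COX6A1 (plus strand, chr12:120438063-120438122) and COX6B1 (plus strand, chr19:35648273-35648332) with the ETS core, which COX5B holds at 2 places. Capitals mark the motif or its reverse complement.
ATP5C1: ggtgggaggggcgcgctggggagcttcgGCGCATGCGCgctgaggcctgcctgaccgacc
ATP5O: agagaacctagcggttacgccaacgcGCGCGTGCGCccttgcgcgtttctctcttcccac
UQCR10: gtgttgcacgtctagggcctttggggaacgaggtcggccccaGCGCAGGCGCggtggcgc
COX5B: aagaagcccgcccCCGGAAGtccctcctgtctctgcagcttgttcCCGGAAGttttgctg
COX6A1: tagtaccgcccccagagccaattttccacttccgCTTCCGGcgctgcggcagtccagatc
COX6B1: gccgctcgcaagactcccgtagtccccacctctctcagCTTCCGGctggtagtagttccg

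Transcripts of the 3 complexes took a smaller share of the counts at every later time than at 0 min. Together the 36 members held 3.84% ± 0.161, 2.18% ± 0.0679, 2.27% ± 0.393 and 1.45% ± 0.0707 of all counts at 0, 5, 15 and 30 min (SD, n = 2). The share was lower at 5 than at 0 min and lower at 30 than at 15 min, with little difference between 5 and 15 min. Against 0 min, edgeR's quasi-likelihood test with Benjamini-Hochberg adjustment at 0.05 found 32 of 36 members lower and 0 higher at 5 min, where 26% of all genes tested were lower and 28.7% higher. At 15 min 33 were lower and 0 higher, beside 24.6% and 29.8% of all genes, and at 30 min 33 were lower and 0 higher, beside 23.8% and 32.1%. Members with unadjusted p under 0.05 that were higher numbered 1, 1 and 0 in these 3 comparisons, and DESeq2 called 0 higher in each. These comparisons share the 0 min cultures. In bulk RNA, fewer cells holding a transcript and less of it per cell cannot be told apart. Nor can a change of level in the cells be told from a different fraction of RNA in the libraries of the later times. Words such as fell, rose and kept describe the counts only.

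The 30 min cultures stood below the 5 min cultures again. At 30 against 5 min, 22 members were lower and 1 was higher, beside 6.52% and 5.88% of all genes, and at 30 against 15 min 21 were lower and 0 higher, beside 2.78% and 2.26% (1 was higher at unadjusted p under 0.05, and 0 by DESeq2). At 15 against 5 min 0 were lower and 1 was higher, beside 0.517% and 1.03% (0 lower at unadjusted p under 0.05 and 0 by DESeq2). Leaving out a culture of a compared time leaves 1 there, so a lost call cannot be told from lost power. The same holds for single genes described below as lost without such a culture. Median log2 fold changes were therefore read with any 1 of the 8 cultures left out. At 30 against 5 min they spanned −0.57 to −0.31 in complex III, −0.91 to −0.76 in complex IV and −0.75 to −0.65 in ATP synthase. At 30 against 15 min the highest median was −0.37 in complex III, −0.68 in complex IV and −0.53 in ATP synthase. Both 30 min cultures lay below both 5 min cultures for 31 of 36 members, and below both 15 min cultures for 32. The share of all genes tested with this order was not computed, so these counts only describe the values.

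**Figure D1:**
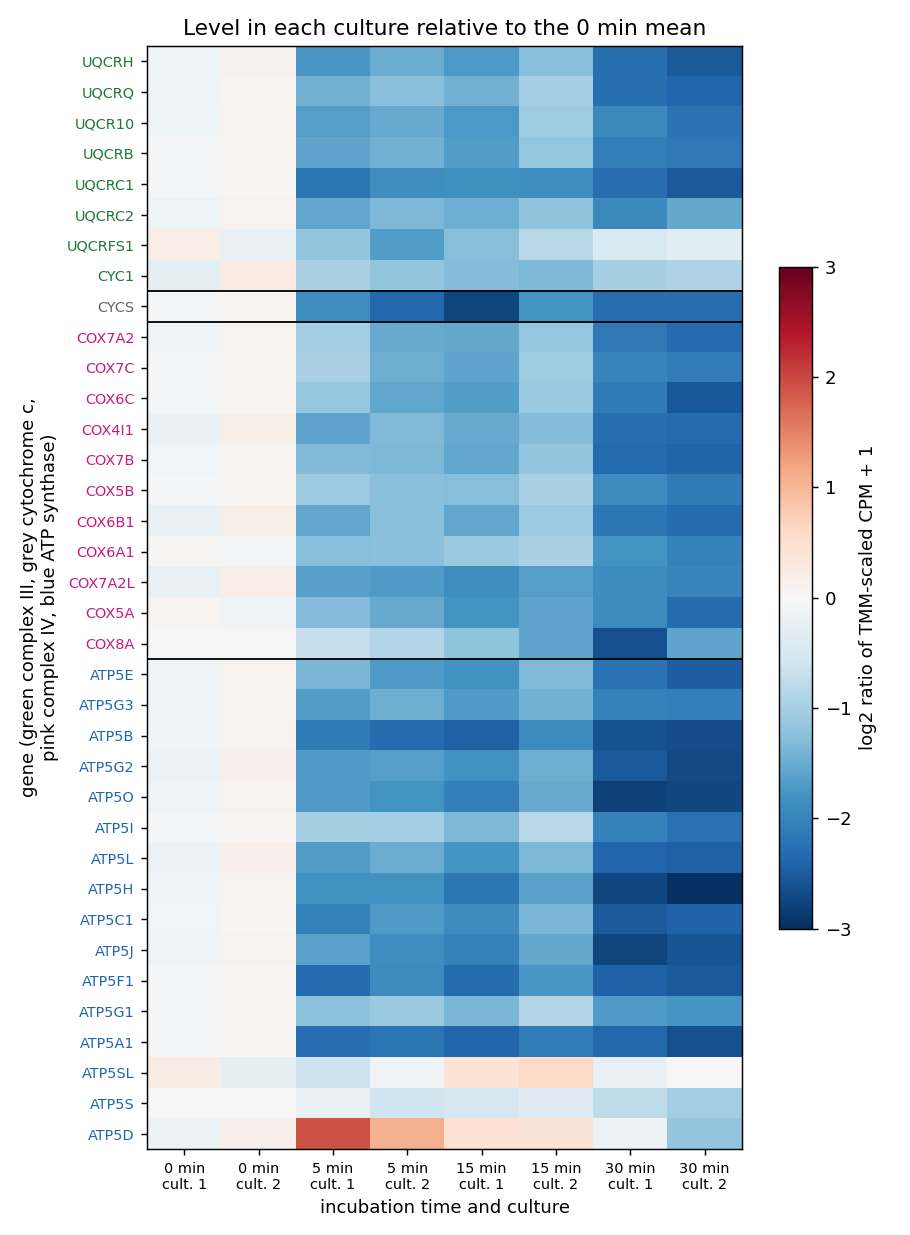
Level of each of the 36 genes (vertical axis, label colour by complex) in each of the 8 cultures (horizontal axis), as the log2 ratio of TMM-scaled CPM plus 1 to the mean of the 0 min cultures plus 1. Blue cells are lower than at 0 min. Most members darken at 5 min and again at 30 min, while UQCRFS1, CYC1, ATP5SL and ATP5D do not follow that order. In CYCS and UQCRC2 the 5 and 30 min cultures overlap.

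Compared by their summed levels, all 3 complexes stood below their 0 min level at each later time, and ATP synthase kept the smallest part of it at 30 min. At 0, 5, 15 and 30 min complex III held 0.661% ± 0.0296, 0.379% ± 0.0325, 0.427% ± 0.0726 and 0.272% ± 0.0134 of counts (SD, n = 2). Complex IV held 1.15% ± 0.0438, 0.772% ± 0.0718, 0.783% ± 0.107 and 0.467% ± 0.0375 at the same times. ATP synthase held 1.77% ± 0.0849, 0.930% ± 0.00523, 0.969% ± 0.175 and 0.614% ± 0.0204. As a percentage of the 0 min share, the 30 min share was 41.1% for complex III, 40.6% for complex IV and 34.7% for ATP synthase. On the TMM scale the 30 min sums were 22.4%, 22.1% and 18.9% of the 0 min sums. In each complex both cultures of every later time lay below both 0 min cultures.

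**Figure D2:**
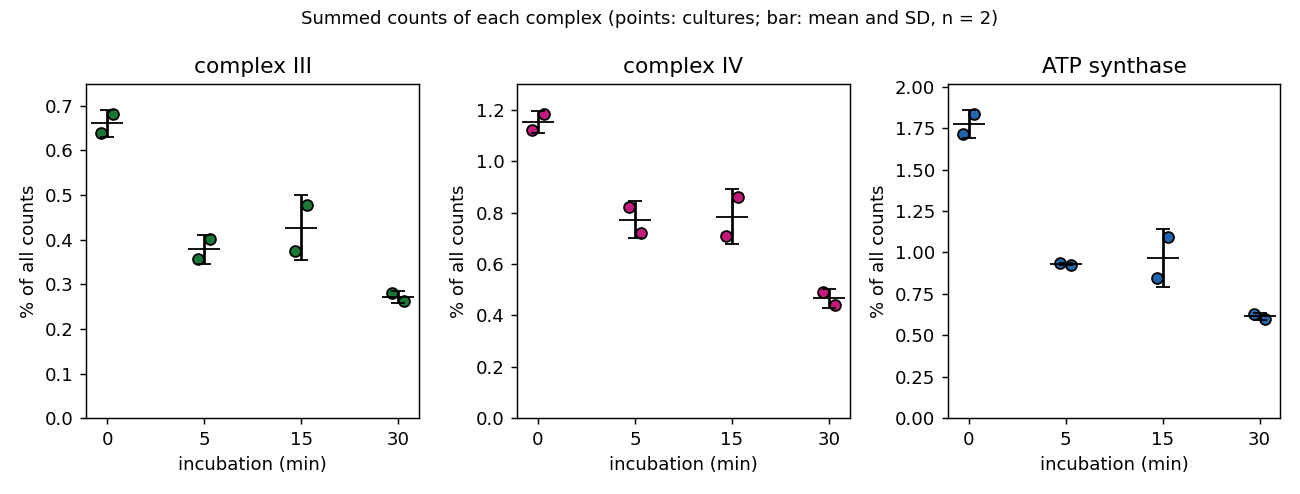
Share of all counts (vertical axis, percent, starting at 0) taken by the summed members of complex III, complex IV and ATP synthase at 0, 5, 15 and 30 min (horizontal axis). Points are cultures and bars the mean and SD of 2; the 30 min cultures of each complex lie below all the others.

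The ratio of 2 complexes within a culture needs no scaling between cultures. Complex IV counts over ATP synthase counts were 0.654 and 0.645 in the 0 min cultures, 0.881 and 0.779 at 5 min, 0.837 and 0.786 at 15 min, and 0.785 and 0.734 at 30 min. Every later culture was above both 0 min cultures, and the 30 min cultures overlapped with those at 5 min and lay just below those at 15 min. In a ratio chosen after its values were seen, without the ATP synthase genes ATP5A1 and ATP5B, the later cultures spanned 0.850 to 0.992, against 0.777 and 0.764 in the 0 min cultures. Complex III over ATP synthase was 0.373 and 0.371 at 0 min, 0.381 and 0.434 at 5 min, 0.444 and 0.437 at 15 min, and 0.448 and 0.437 at 30 min, so that here too the 0 min cultures were lowest. Complex III over complex IV was 0.570 and 0.575 at 0 min, 0.432 and 0.557 at 5 min, 0.530 and 0.557 at 15 min, and 0.570 and 0.596 at 30 min, and the 0 and 30 min cultures overlapped. With 2 cultures against 2 an exact permutation test cannot give a p below 0.33, so these ratios were not tested. Ratios of summed counts depend on transcript lengths, and only their change between times is read here.

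The members' own fold changes had their lowest median in ATP synthase at 5 and 30 against 0 min, and differences between the complexes' medians were not tested. The median log2 fold change of 5 against 0 min was −1.49 for complex III (8 of 8 lower), −1.34 for complex IV (10 of 11 lower) and −1.62 for ATP synthase (13 of 16 lower), beside 0.10 for all genes tested. At 30 against 0 min the medians were −2.09 (7 of 8), −2.12 (11 of 11) and −2.44 (14 of 16), beside 0.35. For the 10 subunits of complex IV alone the medians were −1.31 and −2.18, and for the 14 subunits of ATP synthase alone −1.70 and −2.48. At 30 against 5 min the medians were −0.44 for complex III (3 lower and 1 higher), −0.84 for complex IV (9 lower) and −0.72 for ATP synthase (10 lower), beside −0.03. With total counts alone the medians against 0 min shrank with the shift of all genes, to −0.76, −0.61 and −0.88 at 5 min and −1.22, −1.25 and −1.57 at 30 min. With that scaling 30 of 36 members were lower at 5 min, 26 at 15 min and 31 at 30 min. Of 10439 genes, 1456, 1319 and 1343 were then lower.

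**Figure D3:**
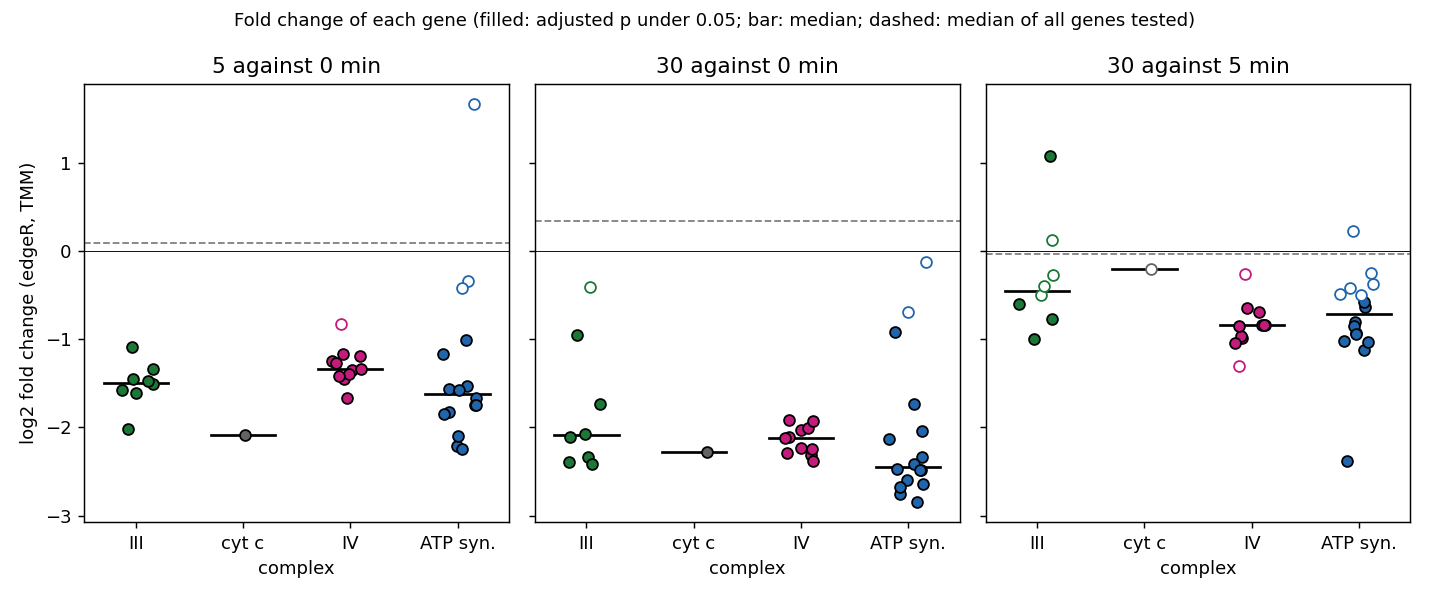
Log2 fold change of each member (vertical axis, edgeR with TMM scaling) by complex (horizontal axis) for 5 against 0, 30 against 0 and 30 against 5 min. Filled points have adjusted p under 0.05, bars are medians of the members and the dashed line is the median of all genes tested; at 30 against 5 min complex III spans −0.99 for UQCRQ to 1.08 for UQCRFS1.

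In complex III the small supporting subunits fell early, and 3 of the 4 named here fell again by 30 min. UQCRH, the hinge protein beside cytochrome c1, had 2532 and 3014 CPM (counts scaled by TMM to a common library size) at 0 min, 831 and 981 CPM at 5 min, 839 and 1137 CPM at 15 min, and 578 and 483 CPM at 30 min. The 30 min cultures were the lowest and the 5 and 15 min cultures overlapped. Its log2 fold change was −1.61 (SE 0.20, adjusted p = 1.34e-08 by edgeR) at 5 against 0 min and −0.77 (SE 0.19, adjusted p = 0.00687) at 30 against 5 min, a call lost without 5 min culture 2 (−0.64) or 30 min culture 2 (−0.65). UQCRQ, a small subunit of the membrane part, had 2030 and 2310 CPM at 0 min, 805 and 910 CPM at 5 min, 797 and 1067 CPM at 15 min, and 449 and 417 CPM at 30 min. It had the lowest fold change of the complex at 30 against 5 min, −0.99 (SE 0.19, adjusted p = 0.000474 by edgeR). UQCRB, which helps form the ubiquinone-binding part, fell by 1.51 on the log2 scale at 5 against 0 min and by 0.60 at 30 against 5 min (adjusted p = 0.0298 by edgeR, which did not hold without any 1 of the 5 and 30 min cultures, nor with total counts alone at −0.46). UQCR10, another small membrane subunit, fell by 1.57 at 5 against 0 min, and its −0.50 at 30 against 5 min had an adjusted p of 0.0955 by edgeR, while DESeq2 called it at −0.61.

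The large core protein UQCRC1 fell early, and its later values did not pass the test. It had 832 and 874 CPM at 0 min, 185 and 232 CPM at 5 min, 238 and 232 CPM at 15 min, and 173 and 148 CPM at 30 min. Its −2.02 (SE 0.18, adjusted p = 3.04e-11 by edgeR) was the lowest value of the complex at 5 against 0 min, and at 30 against 5 min it was −0.39 (SE 0.18, adjusted p = 0.176). At 30 against 15 min it was −0.55 (adjusted p = 0.071 by edgeR), which DESeq2 called at −0.62. The other core protein, UQCRC2, had values of −1.45 and −0.27 in these comparisons, of which the first passed the test. CYC1 and UQCRFS1 are the nuclear encoded subunits that carry redox centres. CYC1, the haem protein cytochrome c1, had 95.8 and 139 CPM at 0 min, 59.6 and 51.1 CPM at 5 min, 47.4 and 45.4 CPM at 15 min, and 58.9 and 61.5 CPM at 30 min. It was below both 0 min cultures at each later time (−1.09, −1.33 and −0.95, all called with TMM), and 0.13 (SE 0.26, adjusted p = 0.805 by edgeR) at 30 against 5 min. With total counts alone its values against 0 min, −0.35, −0.55 and −0.08, did not pass the test, nor did −0.65 at 30 against 0 min without 0 min culture 2.

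UQCRFS1, the Rieske iron-sulphur protein, was the only member higher at 30 than at 5 min by the test. It had 131 and 96.4 CPM at 0 min, 49.1 and 35.0 CPM at 5 min, 46.1 and 63.7 CPM at 15 min, and 82.1 and 91.3 CPM at 30 min. Its counts behind these values were 109 and 63, 42 and 50, 72 and 94, and 138 and 150. Both 30 min cultures were above all 4 cultures at 5 and 15 min and below both at 0 min. The log2 fold change was −1.47 (SE 0.28, adjusted p = 2.72e-05 by edgeR) at 5 against 0 min and 1.08 (SE 0.27, adjusted p = 0.00633) at 30 against 5 min, and −0.40 (SE 0.25, adjusted p = 0.174) at 30 against 0 min. The later rise was 0.83 without 5 min culture 2 and 0.99 without 30 min culture 2, and neither passed the test.

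Cytochrome c fell early, and no later difference passed the test. CYCS had 3632 and 3922 CPM at 0 min, 1045 and 743 CPM at 5 min, 556 and 1088 CPM at 15 min, and 780 and 776 CPM at 30 min. Its log2 fold change at 5 against 0 min was −2.08 (SE 0.23, adjusted p = 1.89e-09 by edgeR), and at 30 against 5 min it was −0.20 (SE 0.22, adjusted p = 0.631), with overlapping cultures. CYCS counts over complex IV counts were 0.222 and 0.212 at 0 min, 0.140 and 0.113 at 5 min, 0.0916 and 0.139 at 15 min, and 0.190 and 0.216 at 30 min, so that the 5 and 15 min cultures were below all of those at 0 and 30 min. The annotation used here (GENCODE release 29) names 40 CYCS pseudogenes, 17 of COX6C and 7 each of COX6B1, ATP5F1, ATP5G1 and ATP5A1, and the labels do not say how reads shared with such copies were counted.

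Complex IV fell in both steps in most of its subunits. COX7A2, a small membrane subunit, had 3030 and 3523 CPM at 0 min, 1605 and 1149 CPM at 5 min, 1138 and 1460 CPM at 15 min, and 745 and 649 CPM at 30 min. COX7C, another small membrane subunit, had 2398 and 2550 CPM, 1269 and 898 CPM, 822 and 1188 CPM, and 629 and 578 CPM at 0, 5, 15 and 30 min. For both genes the 0 min cultures were highest, the 30 min cultures lowest and the 5 and 15 min cultures overlapped. In the later comparison, 30 against 5 min, COX7A2 had −0.98 (SE 0.20, adjusted p = 0.000929 by edgeR) and COX7C −0.84 (SE 0.20, adjusted p = 0.00463). COX6C, a membrane subunit, had values of −1.35 and −0.96 at 5 against 0 and 30 against 5 min, and COX4I1, the common form of the subunit that responds to ATP, had −1.45 and −0.84, and all 4 passed the test. Without 30 min culture 2 none of these 4 genes passed at 30 against 5 min, with values of −0.88 for COX7A2, −0.78 for COX7C, −0.76 for COX6C and −0.82 for COX4I1; COX7C was also lost without 5 min culture 1 (−0.58), and COX4I1 without 5 min culture 2 (−0.69) and without 30 min culture 1 (−0.86).

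The other complex IV members, COX7B, COX5B, COX6B1, COX6A1, COX5A and COX8A, had values of −0.82 to −1.41 at 5 against 0 min and −0.64 to −1.30 at 30 against 5 min. All but COX8A passed in both. COX8A, a small subunit with only 178 counts in all, had 38.3 and 38.3 CPM at 0 min, 23.4 and 20.3 CPM at 5 min, 16 and 12.2 CPM at 15 min, and 5.35 and 12.2 CPM at 30 min. Its −0.82 (SE 0.45, adjusted p = 0.128 by edgeR) at 5 against 0 min did not pass the test and its −2.12 (SE 0.48, adjusted p = 0.000319) at 30 against 0 min did. COX7A2L, which joins complexes III and IV into supercomplexes, had 505 and 675 CPM at 0 min, 191 and 180 CPM at 5 min, 163 and 188 CPM at 15 min, and 159 and 150 CPM at 30 min. It had the lowest value of the group at 5 against 0 min, −1.67 (SE 0.19, adjusted p = 2.18e-09 by edgeR), and the least change at 30 against 5 min, −0.26 (SE 0.19, adjusted p = 0.409).

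The lowest value of the 36 members at 5 against 0 min was in the catalytic head of ATP synthase. ATP5A1, the alpha subunit, had 879 and 930 CPM at 0 min, 185 and 196 CPM at 5 min, 174 and 211 CPM at 15 min, and 177 and 146 CPM at 30 min. ATP5B, the catalytic beta subunit, had 3066 and 3538 CPM at 0 min, 763 and 662 CPM at 5 min, 603 and 874 CPM at 15 min, and 537 and 525 CPM at 30 min. Both genes lay far below 0 min from 5 min on, with −2.24 (SE 0.18, adjusted p = 4.96e-12 by edgeR) for ATP5A1 and −2.21 (SE 0.20, adjusted p = 3.25e-11) for ATP5B at 5 against 0 min. Their values at 30 against 5 min of −0.24 (SE 0.19, adjusted p = 0.446 by edgeR) and −0.42 (SE 0.19, adjusted p = 0.16) did not pass, although DESeq2 called ATP5B lower (−0.53). ATP5F1, subunit b of the outer stalk, was alike in value, with −2.10 and −0.37, of which the first passed.

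The small subunits ATP5E and ATP5I fell in both steps. ATP5E, the epsilon subunit of the central stalk, had 3604 and 4166 CPM at 0 min, 1497 and 1196 CPM at 5 min, 1106 and 1561 CPM at 15 min, and 840 and 703 CPM at 30 min. Its value at 30 against 5 min was −0.80 (SE 0.20, adjusted p = 0.00647 by edgeR), and it was −0.64 without 5 min culture 1 and −0.68 without 30 min culture 2, neither of which passed. ATP5I, subunit e of the membrane part, had 1562 and 1652 CPM at 0 min, 808 and 787 CPM at 5 min, 629 and 897 CPM at 15 min, and 394 and 340 CPM at 30 min. It had −1.01 (SE 0.19, adjusted p = 2.12e-05 by edgeR) at 5 against 0 min and −1.12 (SE 0.19, adjusted p = 0.000105) at 30 against 5 min. ATP5A1 and ATP5B counts summed, over ATP5E and ATP5I counts summed, were 0.763 and 0.768 at 0 min, 0.411 and 0.433 at 5 min, 0.448 and 0.441 at 15 min, and 0.579 and 0.643 at 30 min, so that the 30 min cultures lay between those at 0 min and the others. This ratio was chosen after the fold changes were seen.

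The ring subunit c is encoded by 3 genes that make the same mature protein. ATP5G2 had 2433 and 3086 CPM at 0 min, 852 and 880 CPM at 5 min, 787 and 1006 CPM at 15 min, and 479 and 429 CPM at 30 min. ATP5G3 had 2648 and 3057 CPM, 892 and 1037 CPM, 871 and 1074 CPM, and 694 and 691 CPM at the same times. All 3 fell at 5 against 0 min (−1.17 for ATP5G1, −1.67 for ATP5G2 and −1.56 for ATP5G3). At 30 against 5 min ATP5G2 had −0.93 (SE 0.19, adjusted p = 0.00102 by edgeR) and −0.85 without 30 min culture 2, which did not pass, while ATP5G1 had −0.57 (adjusted p = 0.0375) and ATP5G3 −0.48 (SE 0.19, adjusted p = 0.086, and called by DESeq2 at −0.59). The difference between these 3 genes was not tested. The stalk and membrane subunits ATP5O, ATP5H, ATP5J, ATP5L and ATP5C1 had −1.57 to −1.85 at 5 against 0 min and −0.63 to −1.03 at 30 against 5 min, and all passed in both.

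ATP5D, ATP5SL and ATP5S departed from the rest. ATP5D, the delta subunit of the central stalk, passed the rule with 80 counts, and the entries just under the limit were ATP5J2 and 1 entry of UQCR11 with 46 counts each. ATP5D counts were 4 and 4 at 0 min, 20 and 18 at 5 min, 12 and 11 at 15 min, and 8 and 3 at 30 min. Both 5 min cultures were above both 0 min cultures, but 1.68 (SE 0.79, adjusted p = 0.0705 by edgeR) did not pass the test, and it passed with total counts alone at 2.40. Its value at 30 against 5 min was −2.38 (SE 0.74, adjusted p = 0.0306 by edgeR), a call that DESeq2 did not make (−2.53) and that was lost without 5 min culture 1 (−1.91), 15 min culture 2 (−2.32), 30 min culture 1 (−3.19) or 30 min culture 2 (−1.86). ATP5SL, a protein tied to complex I assembly, had 122 and 87.2 CPM at 0 min, 66.6 and 96.6 CPM at 5 min, 139 and 156 CPM at 15 min, and 88.6 and 106 CPM at 30 min. It was the 1 member higher at 15 than at 5 min, 0.82 (SE 0.22, adjusted p = 0.0491 by edgeR), and DESeq2 (0.80), RLE size factors (0.79) and the fit with the replicate block (0.84) did not call it. Fits without 5 min culture 1 (0.60), 15 min culture 1 (0.91), 15 min culture 2 (0.78) or either 30 min culture (0.83) did not call it, nor did 1 library per cDNA (0.73). ATP5S had −0.42 at 5 against 0 min (adjusted p = 0.337 by edgeR) and −0.91 at 30 against 0 min (adjusted p = 0.0292).

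Transcript length ran with the fold change in opposite directions at 5 against 0 and at 30 against 5 min, comparisons that share the 5 min cultures. Over 36 members, Spearman's rho between the median annotated transcript length and the log2 fold change was −0.46 at 5 against 0 min and 0.70 at 30 against 5 min, and over the 33 subunits −0.60 and 0.67. Over the 9948 of 10439 genes with a length (95.3%) rho was 0.46 and 0.03. At 30 against 0 min rho was −0.02 over the 36 members, −0.15 over the 33 subunits and 0.46 over the 9948 genes. At 30 against 15 min, which does not use the 5 min cultures, it was 0.59, 0.53 and 0.16. These are descriptions: the genes share libraries, scaling and the cultures at 5 min, and the lengths come from GENCODE release 29, which is of another build than the counts. ATP5I, with the shortest median length of 365 bases, had the values −1.01 and −1.12 given above. UQCRFS1, with the longest of 3475 bases, had −1.47 and 1.08, and ATP5A1, with 2101 bases, had −2.24 and −0.24. ATP5E, with a median of 1878 bases over 3 annotated transcripts, lay away from this order at −1.53 and −0.80.

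**Figure D4:**
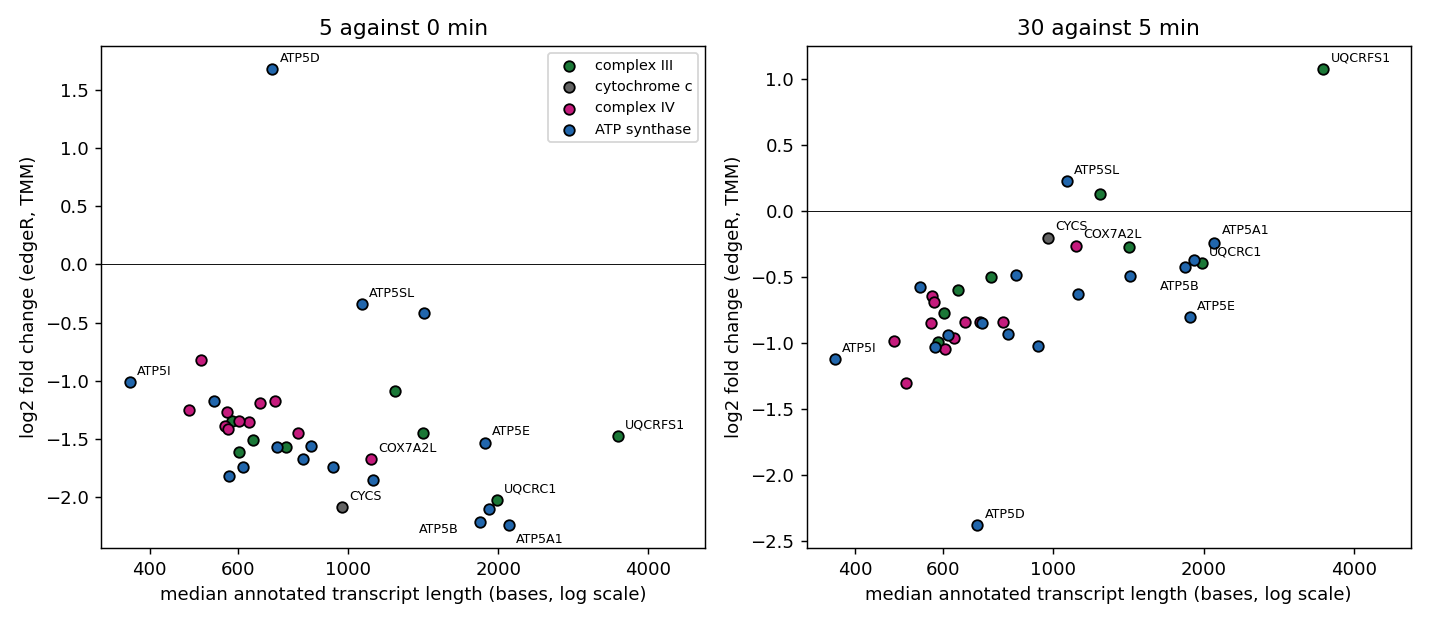
Log2 fold change (vertical axis, edgeR with TMM scaling) of the 36 members against their median annotated transcript length (horizontal axis, bases, log scale), for 5 against 0 min and 30 against 5 min, coloured by complex. Longer transcripts have lower values in the left panel (rho −0.46) and higher values in the right panel (rho 0.70), with ATP5D far from the rest in both. Both panels use the 5 min cultures, and rho was −0.02 at 30 against 0 min.

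Subunits of the same complexes that are encoded in the mitochondrion kept a larger part of their level. MT-CO1, the catalytic subunit of complex IV, had 1147 and 1469 CPM at 0 min, 651 and 581 CPM at 5 min, 841 and 688 CPM at 15 min, and 1535 and 1344 CPM at 30 min. Of the 5 tested, 2 were lower at 5 against 0 min (MT-CO1 at −1.09 and MT-ATP8 at −0.88), and 3 were higher at 30 against 5 min (MT-CO1 at 1.23, MT-CO2 at 0.72 and MT-CO3 at 0.78), beside 26% of all genes lower in the first comparison and 5.88% higher in the second. DESeq2 called 2 of these 3 higher and not MT-CO3. Of these 5, 0 were lower and 2 higher at 5 against 0 min with total counts alone, and 3 were higher at 30 against 5 min. With that scaling 1456 of 10439 genes were lower and 4452 higher in the first comparison, so 2 higher of 5 is near the share of all genes. In the second comparison 759 were higher. MT-CYB of complex III had no count in any library. Mitochondrially over nuclear encoded counts of complex IV were 0.172 and 0.195 at 0 min, 0.356 and 0.286 at 5 min, 0.394 and 0.273 at 15 min, and 1.21 and 0.964 at 30 min. The same ratio for ATP synthase was 0.0609 and 0.0570 at 0 min, 0.151 and 0.122 at 5 min, 0.132 and 0.111 at 15 min, and 0.259 and 0.212 at 30 min. In both complexes every later culture was above both 0 min cultures, and the 30 min cultures were above all the others.

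**Figure D5:**
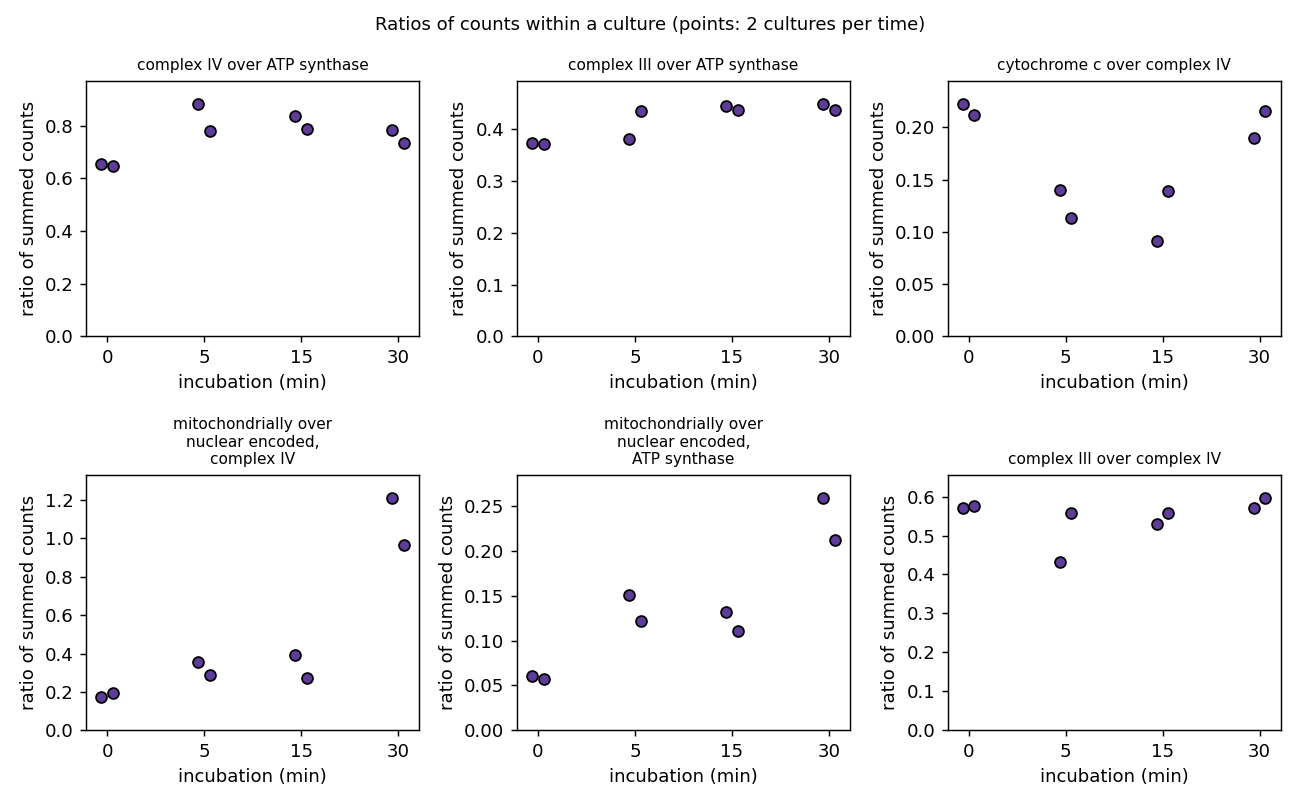
Ratios of summed counts within a culture (vertical axes, from 0) at 0, 5, 15 and 30 min (horizontal axes), 1 point per culture. Complex IV over ATP synthase and complex III over ATP synthase are lowest at 0 min, cytochrome c over complex IV is lowest at 5 and 15 min, and the mitochondrially over nuclear encoded ratios are highest at 30 min, while complex III over complex IV overlaps between 0 and 30 min.

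Genes that help build these complexes were called in both directions. Of 26 tested assembly factors and associated proteins of complex IV, 17 were lower and 4 higher at 5 against 0 min, and 6 lower and 1 higher at 30 against 5 min. Of all genes tested, 26% were lower and 28.7% higher in the first comparison, and 6.52% and 5.88% in the second. The copper chaperone COX17 was lower in both (−1.68 and −0.86), as was NDUFA4, a small protein bound to complex IV (−1.50 and −0.84). The 4 that rose at 5 against 0 min were COX10, a haem A synthesis enzyme (2.69), SCO1, which delivers copper (2.40), LRPPRC, which stabilises mitochondrial mRNA (1.94), and COX18, an insertion factor (1.63). COA7, an assembly factor, fell by 2.42 at 5 against 0 min and was 1.53 higher at 30 against 5 min (adjusted p = 2.1e-05 by edgeR). Of the 26, 11 were lower and 5 higher at 5 against 0 min with total counts alone, beside 1456 and 4452 of 10439 genes. The level of COA7 was 242 and 237 CPM at 0 min, 54.9 and 37.1 CPM at 5 min, 50.6 and 58.3 CPM at 15 min, and 117 and 141 CPM at 30 min.

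Of 6 tested complex III assembly factors, 2 were lower and 1 higher at 5 against 0 min: BCS1L, which inserts the Rieske protein (−1.73), and UQCC2 (−1.37) fell, and TTC19 (1.82) rose. Of 7 tested assembly factors and small proteins of ATP synthase, 4 were lower and 1 higher: USMG5 (−1.58), C14orf2 (−1.37), the inhibitor ATPIF1 (−0.71) and TMEM242 (−0.94) fell, and ATPAF1 (1.56) rose. For lists this small, these counts say little beside the 26% lower and 28.7% higher of all genes. Each of these lists had 2 lower and 2 higher with total counts alone, where ATPIF1 (0.02) and TMEM242 (−0.21) did not pass. With that scaling 1456 of all 10439 genes were lower and 4452 higher. Of 13 transcriptional regulators, 3 were lower and 4 higher at 5 against 0 min, near the shares of all genes (26% and 28.7%). NRF1 had 53.9 and 9.18 CPM at 0 min, 136 and 169 CPM at 5 min, 150 and 150 CPM at 15 min, and 146 and 127 CPM at 30 min, a log2 fold change of 2.19 at 5 against 0 min (adjusted p = 4.77e-07 by edgeR) with a wide spread between the 0 min cultures. PPARGC1B (1.62), YY1 (0.80) and TFB1M (0.52) were also higher, while GABPB1 (−1.59), TFAM (−1.15) and TFB2M (−1.14) were lower. DESeq2 called 2 lower and 3 higher, without TFB2M and TFB1M, and TFB1M did not pass with RLE size factors either (0.45). Scaled by total counts alone, 0 regulators were lower and 5 higher, beside 1456 and 4452 of 10439 genes. The 3 that were lower with TMM then had −0.86, −0.42 and −0.41.

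The nuclear encoded subunits of complex I, another large complex of the chain, gave the following counts. Of 35 tested subunit entries, 33 were lower and 0 higher at 5 against 0 min (median −1.44). At 30 against 0 min 35 were lower and 0 higher (median −2.19), and at 30 against 5 min 22 and 0 (median −0.75). Of all genes tested, 26% were lower and 28.7% higher in the first comparison (median 0.10). The shares were 23.8% and 32.1% in the second (median 0.35), and 6.52% and 5.88% in the third (median −0.03). An antisense entry and NDUFA4, which is counted with complex IV above, were left out after their values were seen; with both kept, 34, 36 and 23 of 37 were lower. None was higher at unadjusted p under 0.05 or by DESeq2 in these comparisons. When total counts alone were used, 23 of the 35 were lower at 5 against 0 min, 32 at 30 against 0 min and 16 at 30 against 5 min. Of 10439 genes, 1456, 1343 and 320 were then lower. The summed counts of the 36 members over those of complex I were 2.38 and 2.40 at 0 min, 2.15 and 2.10 at 5 min, 2.09 and 2.23 at 15 min, and 2.21 and 2.22 at 30 min. The 0 min cultures were above all later ones. Entries of tissue-restricted subunit forms, COX4I2, COX6A2, COX6B2, COX7A1, COX7B2 and COX8C, had 0 counts in 9742052 over all libraries. This allows up to 0.308 CPM from counting error alone, if all libraries counted different molecules.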

How the data were processed

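The 32 libraries were gene counts deposited by the authors as 1 table of whole-number counts for 32738 entries (hg19, STAR, per the submitters' processing notes). The counter, the annotation, the use of strand and any molecular identifiers are not given in the sources used here, so genes that overlap others on either strand (COX6A1, COX8A, ATP5O and ATP5L on the same strand, in GENCODE release 29) may share counts. Columns were matched to samples by barcode; the tagmentation numbers of 4 libraries differ between header and labels, which changes no sum. The 16 pairs of libraries that share a cDNA varied less than counting error alone gives (chi-square over its degrees of freedom, 0.327 to 0.594), while 32 pairs of a culture's libraries from different cDNA varied more (1.141 to 2.288), and the libraries of a culture were summed. The floor given for a count of 0 covers only counting error. It treats all libraries as independent, while those sharing a cDNA varied less than counting error gives, so it may be too low. The p-values rest on the spread between cultures of the same time, pooled over the 4 times and moderated over all genes tested.

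Tests were edgeR 4.0.16 (R 4.3.3) two-sided quasi-likelihood tests with TMM scaling and filterByExpr, in 1 fit over 8 cultures (10439 genes, 4 residual degrees of freedom, biological coefficient of variation 15.3%), adjusted over all genes tested at 0.05. DESeq2 1.42.0, other scalings, no filter, 1 library per cDNA, the 2 times alone, a replicate block and leaving out each culture were alternatives. Levels are TMM-scaled CPM. On simulated 5 against 0 min counts for 10439 genes with 200 changed, the fit found 5.56% of 1.5-fold, 47.8% of 2-fold and 87.1% of 4-fold changes, with 5 false among 102 calls. The simulation gave all genes the same dispersion and held no shift between cultures. In the data 2712 genes were called lower and 2998 higher in this comparison, so these rates need not hold there. The genes described and the pathway lists were chosen with earlier results of these data known. Genes given in full were, in each complex, the 4 with the highest mean CPM and those with the lowest and highest fold change at 5 against 0 and 30 against 5 min, and CYCS; ATP5I, UQCRC2, ATP5F1, ATP5G1, ATP5S and other members with values were named after these were seen.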

Additional observations from a re-analysis of the deposited data

How the results depend on the processing

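With total counts alone, 1 member was called higher in each comparison with 0 min: ATP5D at 5 min (2.40) and ATP5SL at 15 min (1.24) and at 30 min, where it turned to 0.75, and the medians against 0 min were −0.76, −0.58 and −1.22 for complex III, −0.61, −0.59 and −1.25 for complex IV and −0.88, −0.81 and −1.57 for ATP synthase (−0.58 at 30 against 5 min). Summed CPM were then 6606, 3788 and 2717 at 0, 5 and 30 min for complex III, 11530, 7722 and 4667 for complex IV and 17750, 9299 and 6138 for ATP synthase. The lower share of all significant genes at 30 against 5 min was 52.6% with TMM, 67.1% with RLE and 29.7% with total counts. At 30 against 15 min it was 55.1%, 66.4% and 39.3%, and at 15 against 5 min 33.3%, 42.0% and 21.7%. At 15 against 5 min 0 members were higher with RLE, DESeq2, 1 library per cDNA or the replicate block; at 30 against 15 min 1 was higher with 1 library per cDNA or the 2 times alone. The median of complex III at 30 against 0 min was −2.27 with RLE and DESeq2, −1.98 without the filter and −2.24 with the 2 times alone; that of ATP synthase was −2.62, −2.33 and −2.62, and −1.73 at 5 against 0 min with 1 library per cDNA. At 30 against 5 min ATP synthase gave −0.82 with RLE and DESeq2, −0.64 without the filter, −0.59 with 1 library per cDNA and −0.65 with the 2 times alone. Leaving out 1 culture gave 0 to 1 higher calls at 15 against 0, 15 against 5 and 30 against 5 min, 5 to 24 lower calls at 30 against 15 min and 6 to 24 at 30 against 5 min. Medians then spanned −2.16 to −1.98 (30 against 0 min) and −0.75 to −0.37 (30 against 15 min) for complex III, and −1.75 to −1.45 (5 against 0 min), −2.50 to −2.31 (30 against 0 min) and −0.75 to −0.65 (30 against 5 min) for ATP synthase. The causes were not tested. Same-numbered cultures had correlations of −0.032 to 0.081, so no strong shared effect was seen. These values cannot tell if such cultures were handled together. With the replicate block 32, 33 and 33 members were lower against 0 min and 22 at 30 against 5 min.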
